A study of Mus musculus with 27 samples.

Results

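Polycomb proteins keep developmental genes silent by modifying histones, and the enzymes that place, read and remove their marks were followed here by RNA level while mouse microglia were converted into neuron-like cells. The genes were chosen by symbol as 10 components: Ezh1, Ezh2, Eed and Suz12 of Polycomb repressive complex 2 (PRC2), Bmi1, Ring1, Rnf2 and Cbx2 of Polycomb repressive complex 1 (PRC1), and the H3K27 demethylases Kdm6a and Kdm6b. All 10 are among the 24293 gene symbols of the RNA tables, and all 10 were among the 13599 genes tested. The RNA set holds 15 libraries in 5 groups of 3, all from wild-type C57BL/6 mouse cortex taken at postnatal day 1: control microglia and ND1-transduced microglia, each sampled at days 2 and 7 after doxycycline, and cortical neurons grown in culture. Microglia are the resident macrophages of the brain. The transduced cells received lentiviruses carrying ND1 and the doxycycline-responsive activator M2rtTA, 1 addition of doxycycline, and a Neurobasal-based medium supplied with the growth factors BDNF, GDNF and NT3. The labels do not spell out ND1, do not give the medium of the control cells, and do not say whether the 3 libraries of a group came from separate cultures, so the p-values measure only the spread between these libraries.

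PRC2 methylates lysine 27 of histone H3 (H3K27) through a catalytic subunit, either Ezh1 or Ezh2. Its other core subunits include Suz12, the scaffold, and Eed, which binds the finished mark and stimulates the enzyme. PRC1 carries a ubiquitin ligase, Ring1 or Rnf2, that modifies histone H2A, and its canonical form holds a chromobox protein such as Cbx2 that binds methylated H3K27. Kdm6a and Kdm6b remove methyl groups from H3K27. Promoters that carry both this mark and the activating H3K4 mark are called bivalent and are common at developmental genes, including genes of neuronal fate in cells that are not neurons.

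FPKM, a level corrected for transcript length and library depth, summed to 428966 to 739688 per library, and the libraries of a group correlated at 0.975 to 0.986 across tested genes. Neurod1 stood at 1.04 to 2.16 FPKM in control microglia, 3073 to 3454 in ND1 cells at day 2, 32.5 to 36.7 in ND1 cells at day 7 and 6.38 to 6.79 in neurons. The summed FPKM of 10 microglia markers was 6881 to 12850 in control libraries, 4658 to 5123 in ND1 day 2 libraries, 392 to 554 in ND1 day 7 libraries and 9.68 to 10.9 in neurons. The summed FPKM of 10 neuron markers was 21.1 to 28.6 in control, 684 to 849 in ND1 day 2, 4250 to 4254 in ND1 day 7 and 3294 to 3603 in neuron libraries. Of the microglia markers, Tmem119 was under 1 FPKM in every library of the control day 2 group. In bulk RNA, fewer cells of a type and less RNA per cell cannot be told apart. A feature of the ND1 day 2 libraries bears on the day 2 values given below. Across 633 genes that were high in neurons and low in control cells, the rise at ND1 day 2 made up a nearly constant part of that at ND1 day 7. The median was 17.1% and the 5th to 95th percentile 15.2% to 18.9%. These genes also had to be expressed at ND1 day 7 and detected in every ND1 and neuron library. The set was thus chosen partly on the values compared. The day 2 log2 changes of the 10 genes, the day 2 calls of related genes and the ratios of paired enzymes are therefore also given with it removed. This share of the ND1 day 7 profile was subtracted, and the remainder was divided by the share left. The division raises every remaining value, so a smaller fall after the removal can come from it.

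At day 7, ND1-transduced and control microglia differed in the levels of some of these genes (the plot of FPKM by library). Ezh2, Kdm6b and Cbx2 were higher in ND1 cells, and Ezh1 and Eed were lower. A gene was tested only if it reached 1 FPKM in 3 or more libraries, and Cbx2 did so in ND1 day 7 libraries alone. Its higher level there was thus fixed in advance. Suz12, Bmi1, Ring1, Rnf2 and Kdm6a were not called. A gene was called when limma, a linear model fitted across all tested genes on log2(FPKM + 1), gave a Benjamini-Hochberg adjusted p under 0.05 and an absolute log2 change of at least 1. By this rule 25.7% of all tested genes were called higher and 24.5% lower, so 3 higher and 2 lower among 10 is near the background and says nothing about the genes as a group. The median log2 change over the 10 genes was 0.13, beside 0.04 over all tested genes.

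**Figure D1:**
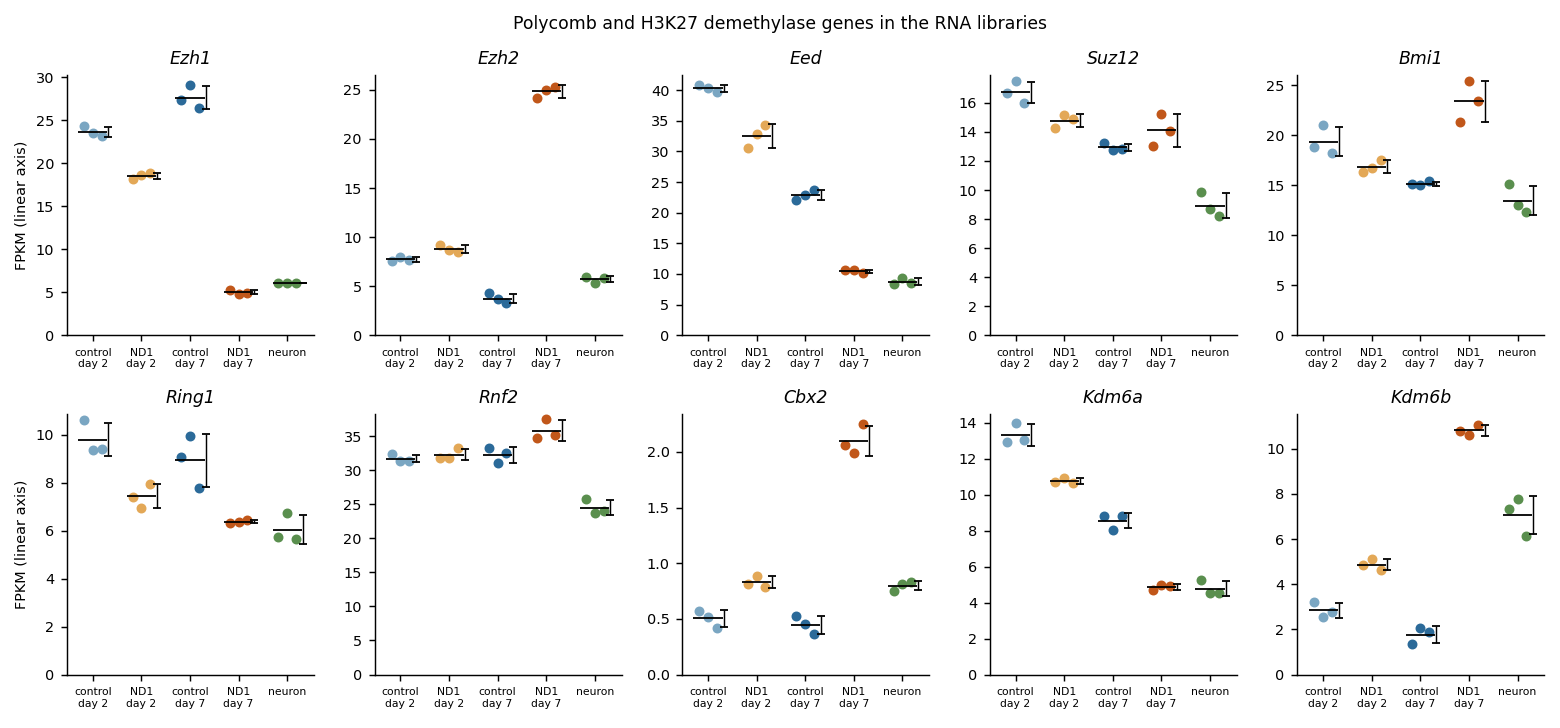
FPKM of each of the 10 genes on a linear axis that starts at 0, with 1 point per library, the group mean as a line and the SD as a bar beside it (n = 3). Ezh2 lies at 24.1 to 25.3 in ND1 day 7 libraries and Ezh1 at 4.82 to 5.27, the reverse of their order in both control groups.

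Ezh2, the more active of the PRC2 methyltransferases and the one usually linked to dividing cells and progenitors, had 4.27, 3.65 and 3.29 FPKM in the control day 7 libraries and 24.1, 25.03 and 25.3 in the ND1 day 7 libraries. The groups did not overlap, and no other group came near the ND1 day 7 level. Control day 2 libraries had 7.51, 7.99 and 7.68 FPKM, ND1 day 2 libraries 9.24, 8.66 and 8.49, and neurons 5.90, 5.33 and 5.88. From highest to lowest the order was ND1 day 7, ND1 day 2, control day 2, neurons and control day 7, with no overlap between neighbours. The log2 change at day 7 was 2.45 (SE 0.065, limma adjusted p = 6.76e-14). The summed FPKM of 15 proliferation markers was 287 to 324 in control day 7 libraries and 129 to 133 in ND1 day 7 libraries, of which Pcna alone, the sliding clamp of DNA replication, made up 188 to 219 and 79.2 to 83.6. Of 14 tested, 0 were called higher, 9 were not called, and the 5 called lower were Cdk1, Mcm3, Aurkb, Pcna and Mcm2, at -2.20, -1.86, -1.55, -1.27 and -1.14. Rrm2 and Tyms, enzymes of nucleotide synthesis, were not called, with Rrm2 at 3.93 to 5.79 FPKM in control and 9.84 to 10.6 in ND1 cells and Tyms at 1.27 to 1.504 and 1.94 to 2.17. Of 6 neural progenitor markers, Hes5 and Prom1 were called higher at 1.21 and 1.08, Vim was called lower at -2.72, and 3 were not called, Sox2 among them at 2.62 to 3.09 and 6.13 to 6.49 FPKM. Hes5 and Pax6 reached 1 FPKM in ND1 day 7 libraries alone, so their higher level there was fixed in advance. Prom1 was under 1 FPKM in every control library and passed the filter only through ND1 and neuron libraries, so the same limit applies. The part of dividing or progenitor cells in the Ezh2 value was not tested.

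Ezh1, which PRC2 uses mainly in non-dividing cells, went the other way. It had 27.3, 29.1 and 26.5 FPKM in the control day 7 libraries and 5.27, 4.82 and 4.95 in the ND1 day 7 libraries. Its control day 2 libraries held 24.3, 23.6 and 23.1 FPKM, its ND1 day 2 libraries 18.2, 18.6 and 18.9, and its neuron libraries 6.04, 6.05 and 6.03. Control day 7 was thus the highest group and ND1 day 7 the lowest, just under neurons, and again no neighbouring groups overlapped. The log2 change at day 7 was -2.25 (SE 0.041, limma adjusted p = 1.45e-15).

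The balance of the pair inverted only in ND1 day 7 libraries. FPKM is scaled by length, so levels of different genes can be set side by side, and the ratio of Ezh2 to Ezh1 was 0.327 ± 0.0155 (SD, n = 3) in control day 2, 0.135 ± 0.0182 in control day 7, 0.474 ± 0.0302 in ND1 day 2, 4.97 ± 0.338 in ND1 day 7 and 0.945 ± 0.0553 in neurons. The ratio was above 1 in all 3 ND1 day 7 libraries and below 1 in the other 12. With the ND1 day 7 share subtracted, ND1 day 2 stood at 0.258 ± 0.0273, below control day 2 rather than above it, so the direction at day 2 turned. On the log2 scale the ratio was 5.20 higher in ND1 than in control cells at day 7, where the groups did not overlap. The two-sided exact permutation p was 0.1, the smallest that 3 against 3 allows, and 0.133 after adjustment over the 12 ratio comparisons made.

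The starts of these genes are shown because both lie in stretches dense in CpG sites whose methylation was also measured. In each sequence, 250 bases before to 50 after the start in the RefSeq promoter set (GRCm38.p6, the mm10 assembly, in the direction of the gene), the capitals mark every CpG. Ezh1 lies on chromosome 11 at 101191115 to 101226463 on the minus strand, and its window is chr11:101226414-101226713. Ezh2 lies on chromosome 6 at 47530274 to 47595270 on the minus strand, and its window is chr6:47594981-47595280, whose start lies 240 bases inside the gene as annotated.
Ezh1: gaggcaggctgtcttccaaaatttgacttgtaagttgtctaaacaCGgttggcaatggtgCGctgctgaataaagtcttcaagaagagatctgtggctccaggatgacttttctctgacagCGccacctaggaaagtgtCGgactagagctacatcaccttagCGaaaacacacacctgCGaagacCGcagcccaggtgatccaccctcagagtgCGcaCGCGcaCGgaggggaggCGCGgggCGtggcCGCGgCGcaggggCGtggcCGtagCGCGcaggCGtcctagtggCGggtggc
Ezh2: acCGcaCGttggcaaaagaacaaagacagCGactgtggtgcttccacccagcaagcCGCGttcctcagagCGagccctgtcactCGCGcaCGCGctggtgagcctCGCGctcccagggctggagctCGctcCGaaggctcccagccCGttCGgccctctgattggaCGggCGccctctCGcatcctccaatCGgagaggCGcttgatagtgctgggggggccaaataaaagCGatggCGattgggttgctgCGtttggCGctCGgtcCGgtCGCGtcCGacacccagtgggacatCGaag

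The Ezh1 window holds 23 CpGs and that of Ezh2 31, and each of them has a value in both bisulfite libraries. The Ezh2 window also holds TTTGGCGC, a letter string bound by E2F factors, at bases 3 to 10 after the start on the strand of the gene. This string is present on either strand in 0.537% of 27025 RefSeq promoter windows of this length. Any of the strings TTTGGCGC, TTTCGCGC, TTTCCCGC and TTTGCCGC is present in 2.32%. Of the other windows, Suz12 holds TTTCCCGC at bases 219 to 212 before its start, and those of Ezh1, Eed, Bmi1, Ring1, Rnf2 and Kdm6a hold none of these strings. The E-box strings CAGATG and CAGCTG, of the kind that neurogenic basic helix-loop-helix factors bind, occur in 30.4% of windows and in 1 of the 8, Ring1, with CAGCTG. A match is only a description of letters. Windows for Cbx2 and Kdm6b were not used here.

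Eed, the subunit that reads trimethylated H3K27, was lower in ND1 cells and in neurons, and it also differed between the control groups. It had 22.0, 22.9 and 23.7 FPKM in control day 7 libraries and 10.6, 10.6 and 10.2 in ND1 day 7 libraries. Control day 2 was highest at 40.9, 40.4 and 39.7 FPKM, then ND1 day 2 at 30.5, 32.8 and 34.3, and neurons were lowest at 8.43, 9.36 and 8.50. No neighbouring groups overlapped. The log2 change at day 7 was -1.06 (SE 0.048, limma adjusted p = 2.75e-11), which lies close to the threshold: with quantile normalization it was -0.98 and with median ratio scaling also -0.98, and the gene was then not called. Suz12 had 13.2, 12.8 and 12.8 FPKM in control day 7 and 13.0, 15.2 and 14.0 in ND1 day 7 libraries, which overlap, with a log2 change of 0.11 (SE 0.064, limma adjusted p = 0.109). Its control day 2 libraries were highest at 16.0 to 17.5, ND1 day 2 held 14.3 to 15.1, and neurons were lowest at 8.20 to 9.90.

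The promoter window of Eed, on chromosome 7 at chr7:89980927-89981226 on the minus strand, is set here for comparison with that of Ezh1, since both genes were lower at day 7.
Eed: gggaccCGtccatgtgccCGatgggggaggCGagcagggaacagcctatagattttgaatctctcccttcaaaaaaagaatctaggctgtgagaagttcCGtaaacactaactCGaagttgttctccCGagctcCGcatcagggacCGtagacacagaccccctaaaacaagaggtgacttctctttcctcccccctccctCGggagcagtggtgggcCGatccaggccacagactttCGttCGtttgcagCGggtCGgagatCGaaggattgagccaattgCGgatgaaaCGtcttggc
It holds 17 CpGs, the fewest of these 3 windows.

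The other PRC2 genes were mostly not called at day 7. They are the histone-binding subunits Rbbp4 and Rbbp7 and accessory subunits, which steer the complex to CpG-rich DNA and define its PRC2.1 and PRC2.2 forms. Of 7 tested, 1 was higher, 1 was lower and 5 were not called, where 25.7% of all tested genes were called higher and 24.5% lower. Jarid2, a cofactor that recruits PRC2 in embryonic stem cells, was 2.35 ± 0.118 FPKM in control and 7.11 ± 0.345 in ND1 day 7 libraries (SD, n = 3), a log2 change of 1.28 (SE 0.064, limma adjusted p = 1.03e-10). Aebp2, which shares the PRC2.2 form with Jarid2, was 28.3 ± 1.17 and 10.3 ± 0.662 FPKM, a log2 change of -1.38 (SE 0.056, limma adjusted p = 8.02e-12). Jarid2 and Aebp2 were also called in neurons against control day 7, at 1.88 and -1.40. The histone-binding subunit Rbbp7 was 27.8 ± 0.974 FPKM in ND1 day 7 cells and 73.2 ± 1.79 in neurons, and was called lower in that comparison at -1.37 (SE 0.047, limma adjusted p = 8.48e-12).

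Neither PRC1 ligase was called at day 7. Rnf2, the main H2A ubiquitin ligase in embryonic stem cells, had 33.3, 31.0 and 32.5 FPKM in control day 7 and 34.8, 37.6 and 35.1 in ND1 day 7 libraries, a log2 change of 0.15 (SE 0.042, limma adjusted p = 0.00466) that was not called. Its day 2 groups, at 31.4 to 32.4 in control and 31.8 to 33.3 in ND1 cells, overlapped with control day 7, and neurons were lowest at 23.7 to 25.8. Ring1, its paralog, had 9.05, 9.96 and 7.78 FPKM in control day 7 and 6.32, 6.34 and 6.46 in ND1 day 7 libraries, a log2 change of -0.42 (SE 0.082, limma adjusted p = 2.23e-04) that was not called either. ND1 day 7 libraries lay within the range of neurons, 5.67 to 6.73, and ND1 day 2, at 6.95 to 7.96, overlapped with control day 7, which overlapped with control day 2 at 9.37 to 10.6. The ratio of Rnf2 to Ring1 was 3.66 ± 0.535 in control day 7 and 5.62 ± 0.264 in ND1 day 7 libraries (SD, n = 3), without overlap, with a two-sided exact permutation p of 0.1, or 0.133 adjusted over the 12. It was 3.25 ± 0.170 in control day 2 and 4.35 ± 0.208 in ND1 day 2, or 4.13 ± 0.228 in the latter with the ND1 day 7 share subtracted.

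Bmi1, the Polycomb ring finger protein that partners the ligase in canonical PRC1 and sustains neural stem cells, had 15.1, 15.03 and 15.4 FPKM in control day 7 libraries and 21.4, 25.4 and 23.4 in ND1 day 7 libraries. The groups did not overlap, but the log2 change of 0.59 (SE 0.074, limma adjusted p = 3.51e-06) was below the fold threshold. Control day 2 held 18.3 to 21.1, ND1 day 2 16.3 to 17.6 and neurons 12.3 to 15.1, the last overlapping with control day 7.

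Cbx2, a chromobox protein that compacts chromatin, was the least abundant of the 10 genes in all 15 libraries. It had 0.527, 0.454 and 0.366 FPKM in control day 7 and 2.06, 1.99 and 2.25 in ND1 day 7 libraries, a log2 change of 1.10 (SE 0.054, limma adjusted p = 7.5e-11). It reached 1 FPKM in those 3 ND1 libraries alone, so it passed the filter on low values only through the group where it was high and had to differ there. The same limit applies to every other comparison of Cbx2 that includes ND1 day 7 libraries. With quantile normalization its log2 change at day 7 was 0.67 and not called. ND1 day 2 libraries, at 0.783 to 0.888, overlapped with neurons at 0.753 to 0.828, and control day 2, at 0.420 to 0.574, overlapped with control day 7.

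Of the 22 wider PRC1 genes, 6 were higher and 3 lower in ND1 cells at day 7, and 13 were not called, beside the 25.7% and 24.5% of all tested genes. The higher ones were led by Auts2, a PRC1.5 subunit linked to neurodevelopmental disorders, at 0.156 ± 0.0612 FPKM in control and 11.9 ± 0.585 in ND1 cells (log2 change 3.48, SE 0.063, limma adjusted p = 1.4e-15). Auts2 was under 1 FPKM in every control library and passed the filter only through ND1 and neuron libraries. Its higher level there was thus fixed in advance. Phc1, a polyhomeotic subunit of canonical PRC1, was 4.09 ± 0.319 and 24.6 ± 0.921 FPKM (log2 change 2.33). The ring finger genes went both ways. Pcgf2, named after its value was seen, was 3.11 ± 0.0755 and 14.9 ± 0.103 FPKM (log2 change 1.95), whereas Pcgf5, the ring finger partner of Auts2 in PRC1.5, was 8.86 ± 0.204 and 1.38 ± 0.178 (log2 change -2.05). Cbx7, the chromobox protein of self-renewing stem cells, was 5.63 ± 0.13 and 0.522 ± 0.0918 FPKM (log2 change -2.12), while Cbx2 was the chromobox gene of the 10 that was higher. In neurons against control day 7, 9 of these 22 genes were called higher and 4 lower, where 28.1% of all tested genes were called higher and 25.2% lower. Auts2, Cbx7, Pcgf5 and Phc1 led there at 2.25, -2.23, -2.18 and 2.02.

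**Figure D2:**
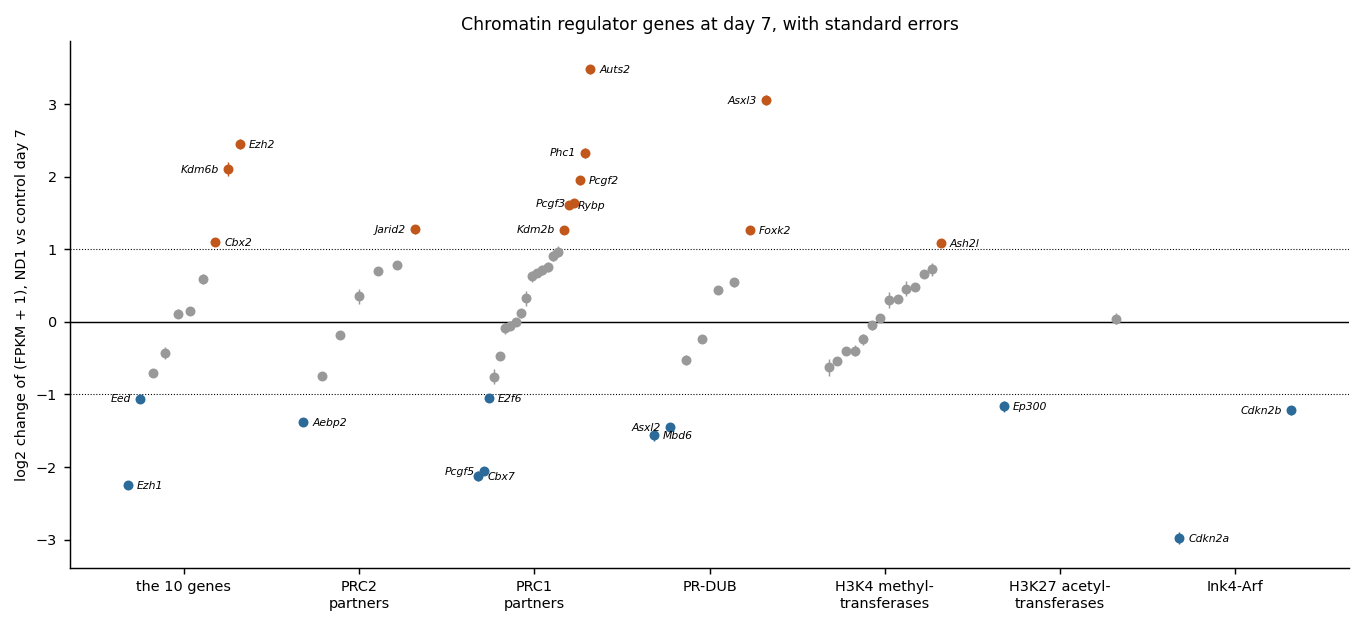
Log2 change of (FPKM + 1) with its standard error for ND1 against control cells at day 7, for the 10 genes and 6 lists of related chromatin genes. Called genes are coloured and named, orange higher and blue lower; within the PRC1 list values run from -2.12 (Cbx7) to 3.48 (Auts2), and dotted lines mark a log2 change of 1 in either direction.

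The H3K27 demethylases had opposite signs at day 7. Kdm6b, which in macrophages is induced by inflammatory signals and which also acts in neuronal commitment, had 1.37, 2.07 and 1.86 FPKM in control day 7 libraries and 10.8, 10.6 and 11.1 in ND1 day 7 libraries. Control day 2 held 3.21, 2.56 and 2.77, ND1 day 2 4.86, 5.12 and 4.62, and neurons 7.33, 7.76 and 6.12, so the order was ND1 day 7, neurons, ND1 day 2, control day 2 and control day 7 without overlap between neighbours. The log2 change at day 7 was 2.10 (SE 0.097, limma adjusted p = 3.82e-11). Of 12 genes of the NF-kappaB response, 0 were called higher and 10 lower in the same comparison, beside 25.7% and 24.5% of all tested genes. Their summed FPKM was 2359 to 2612 in control and 151 to 191 in ND1 day 7 libraries. Ccl5 alone made up 1321 to 1440 and 72.5 to 97.6 of it. All 9 tested microglia markers were also called lower. The part of inflammatory signals in the Kdm6b value was not tested.

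Kdm6a, the X-linked demethylase that also belongs to the H3K4 methyltransferase complexes of Kmt2c and Kmt2d, had 8.82, 8.07 and 8.81 FPKM in control day 7 and 4.69, 5.004 and 4.91 in ND1 day 7 libraries. These groups did not overlap, but the log2 change of -0.70 (SE 0.054, limma adjusted p = 1.46e-08) was below the fold threshold. Control day 2 held 12.9 to 14.0 FPKM and ND1 day 2 10.6 to 10.9, and ND1 day 7 lay within the range of neurons, 4.52 to 5.27. The ratio of Kdm6b to Kdm6a was 0.214 ± 0.0331 in control day 2, 0.208 ± 0.051 in control day 7, 0.452 ± 0.0168 in ND1 day 2, 2.22 ± 0.0959 in ND1 day 7 and 1.48 ± 0.192 in neurons (SD, n = 3). The ratio was above 1 in every ND1 day 7 and neuron library and below 1 in the other 9. With the ND1 day 7 share subtracted, ND1 day 2 was at 0.304 ± 0.0205, still above control day 2 without overlap. On the log2 scale ND1 and control cells at day 7 differed by 3.45, with a two-sided exact permutation p of 0.1 (adjusted 0.133).

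Because Kdm6a escapes X inactivation and has a Y-linked relative, Uty, sex-linked genes were set beside it. Xist, the RNA of the inactive X, was 13.7 ± 1.48 FPKM in control day 7, 48.3 ± 3.72 in ND1 day 7 and 22.2 ± 4.54 in neuron libraries (SD, n = 3), and was called higher in ND1 cells at day 7 (log2 change 1.75, SE 0.115, limma adjusted p = 2.18e-09) and against neurons (1.10). Uty was 3.32 ± 0.34 in control day 7, 1.36 ± 0.181 in ND1 day 7 and 2.85 ± 0.57 FPKM in neurons, with a log2 change of -0.87 at day 7 that was not called. The Y-linked Kdm5d, Ddx3y and Eif2s3y had log2 changes of -0.23, -0.44 and 0.36 at day 7, not called, while against neurons Ddx3y was lower in ND1 day 7 cells at -1.19 and Eif2s3y was higher in neurons than in control day 7 at 1.15. Xist and Y-linked RNA were both present in every group. The part of a differing mix of sexes in the Kdm6a values was not tested.

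At day 2, 0 of the 10 genes were called, where 9.1% of all tested genes were called higher and 0.618% lower. At any fold, limma gave 9 of the 10 an adjusted p under 0.05, and 9 also an unadjusted p under 0.05, as it did for 67.9% of all tested genes. Kdm6b had the largest value, 0.61 (SE 0.097, limma adjusted p = 8.39e-05), then Ring1 at -0.36, Ezh1 at -0.33, Eed at -0.30, Kdm6a at -0.28 and Cbx2 at 0.28, which became -0.19 with quantile normalization. Bmi1, Suz12 and Ezh2 had -0.19, -0.17 and 0.17, and Rnf2 0.025 (limma adjusted p = 0.612). The median over the 10 was -0.18, beside -0.04 over all tested genes.

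**Figure D3:**
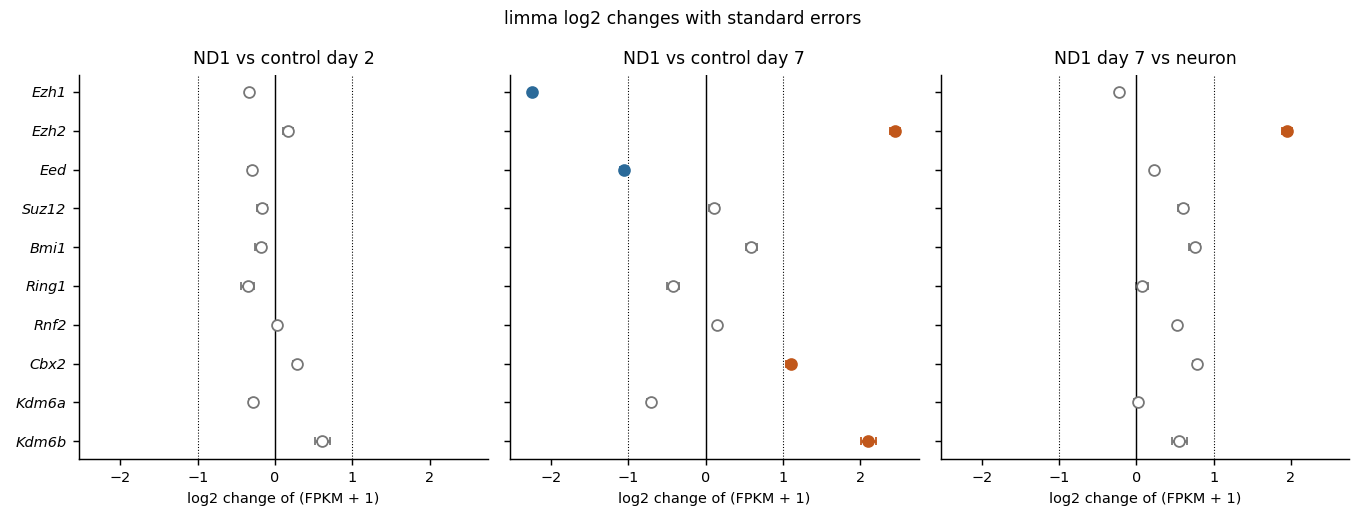
Log2 change of (FPKM + 1) with its standard error for the 10 genes in 3 comparisons, with filled points where a gene was called and open points where it was not. At day 2 all 10 points are open and lie between -0.36 and 0.61, at day 7 5 are filled, and against neurons Ezh2 alone is filled, at 1.95.

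Placed between control day 2 (0%) and ND1 day 7 (100%) on the FPKM scale, the ND1 day 2 libraries stood at 8.82%, 5.47% and 4.47% for Ezh2. That is low beside the median of 16.2% over the 2885 tested genes at least 2-fold higher at ND1 day 7, though inside their 5th to 95th percentile of 4.04% to 24.2%. Kdm6b stood at 25.3%, 28.6% and 22.3%, with a mean of 25.4%, above that range, and Cbx2 at 19.5%, 24.0% and 17.5%. The reference values rest on group means and leave out genes low in both groups, Cbx2 among them. The genes that were lower at ND1 day 7 stood at 29.3%, 27.1% and 25.5% for Ezh1, 33.0%, 25.2% and 20.3% for Eed and 30.9%, 28.2% and 31.8% for Kdm6a, near the median of 29.1% over 3150 genes at least 2-fold lower. With the share of 17.1% of the ND1 day 7 profile taken out of each day 2 library, Ezh2 was -0.43 against control day 2 (SE 0.073, limma adjusted p = 5.08e-04), in place of 0.17, and Kdm6b was 0.27 in place of 0.61. Ring1, Bmi1 and Suz12 were then at -0.32, -0.30 and -0.15, Ezh1, Eed and Kdm6a at -0.14, -0.12 and -0.14, Cbx2 at 0.059 and Rnf2 at -0.007, and again 0 of the 10 were called. The 2 calls among related genes at day 2, Auts2 and Asxl3, were also lost. They had 1.45 and 1.08 as deposited, and 0.20 and -0.036 after the subtraction (limma adjusted p = 0.256 and 0.761). On the scale above they stood at means of 18.6% and 16.4%, near the share removed, so their loss followed from the subtraction. Both passed the filter only through ND1 and neuron libraries, so their higher level there was fixed in advance.

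**Figure D4:**
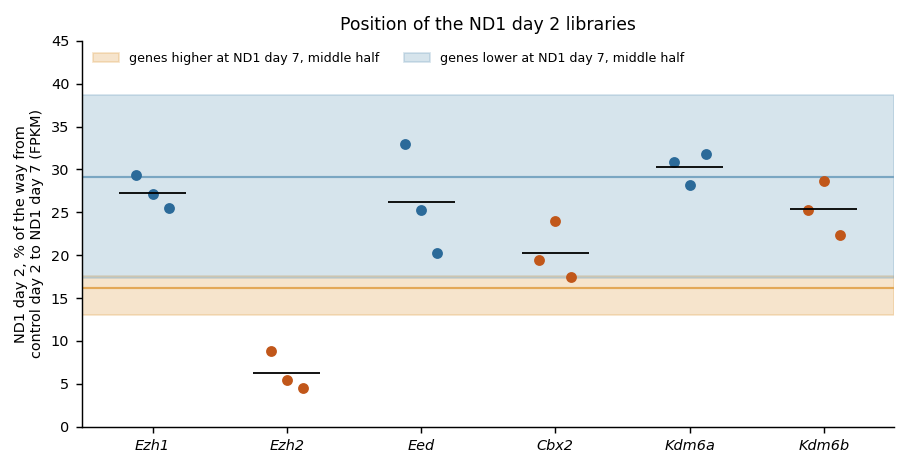
Position of each of the 3 ND1 day 2 libraries between the control day 2 mean (0%) and the ND1 day 7 mean (100%) in FPKM, for the 6 of the 10 genes whose means differ at least 2-fold, orange where higher and blue where lower at ND1 day 7, with black lines for means. Bands show the interquartile range, from group means, over tested genes that differ at least 2-fold and are not low in both groups. Ezh2, at 4.47% to 8.82%, lies below the band of the higher genes and Kdm6b, at 22.3% to 28.6%, above it.

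The change in ND1-transduced against control cells at day 7 differed from that at day 2 for 3 of the 10 genes. The test of the difference itself called 20.5% of all tested genes higher and 20.8% lower. The parts of ND1, the viruses and the medium in this change cannot be told apart. Ezh2 was 2.29 higher on the log2 scale (SE 0.092, limma adjusted p = 2.57e-11), Kdm6b 1.49 higher (SE 0.137, limma adjusted p = 1.69e-07), and Ezh1 was at -1.92 (SE 0.058, limma adjusted p = 1.71e-12). Cbx2, Bmi1 and Eed had differences of 0.82, 0.78 and -0.76 that were below the fold threshold. Cbx2 was called with a pseudocount of 0.1, at 1.39, and with the ND1 day 7 share subtracted from day 2, at 1.04. It passed the filter only through ND1 day 7 libraries, so its higher level there was fixed in advance.

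The control values, which enter this difference, also differed between the days. In control microglia at day 7 against day 2, 0 of the 10 genes were called, beside 3.9% of tested genes called higher and 3.79% lower, although limma gave 7 an adjusted p under 0.05 at any fold (7 also at an unadjusted p under 0.05), as for 65.8% of tested genes. The largest values were -0.89 for Ezh2 (SE 0.065, limma adjusted p = 4.82e-08), -0.79 for Eed, -0.58 for Kdm6a and -0.48 for Kdm6b, and Ezh1 was at 0.22. With a pseudocount of 0.1 Ezh2 was at -1.03 and called lower. Of the related lists, Cbx7 was called higher in control cells at day 7, at 1.23. Markers of other cells also differed between the control groups. Of 5 astrocyte markers tested 3 were called higher at day 7 (Gfap at 2.77, Aqp4 at 2.59 and Slc1a3 at 1.72). The summed FPKM of the 6 listed was 17.4 to 19.2 at day 2 and 61.5 to 65.9 at day 7. Of 5 fibroblast and mural markers tested 3 were called higher (Acta2 at 3.68, Col1a1 at 1.64 and Col1a2 at 1.18). The 7 listed had sums of 1.10 to 2.00 and 25.1 to 32.2, of which Acta2 alone made up 0.616 to 0.829 and 20.0 to 22.3. In ND1 against control cells at day 7, 3 of the 5 astrocyte markers were called lower and 3 of the 5 fibroblast and mural markers higher. Among the latter 5, Pdgfrb reached 1 FPKM in ND1 day 7 libraries alone, so its higher level there was fixed in advance. Rgs5 reached it in ND1 day 7 and neuron libraries alone, so the same limit applies. The part of these cells in the values of the 10 genes was not tested. In ND1 cells at day 7 against day 2, Ezh1, Eed and Kdm6a were lower at -1.70, -1.55 and -1.004 and Ezh2 and Kdm6b higher at 1.40 and 1.010, where 22.6% of tested genes were called higher and 21.1% lower. Cbx2, at 0.76, was called with a pseudocount of 0.1, at 1.24. Its higher level at ND1 day 7 was fixed by the filter. The values of Kdm6a and Kdm6b lie at the threshold. Kdm6a was at -0.99 and not called with median ratio scaling or without ND1 day 2 replicate 2, and at -0.98 without ND1 day 7 replicate 1. Kdm6b was at 0.98 without ND1 day 2 replicate 3 and just under 1 without ND1 day 7 replicate 3.

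Set against cultured cortical neurons, ND1 day 7 cells differed in 1 of the 10 genes by the call. Ezh2 was 1.95 higher on the log2 scale in ND1 cells (SE 0.065, limma adjusted p = 7.11e-12), where 7.29% of tested genes were called higher and 6.24% lower. Cbx2, Bmi1, Suz12, Kdm6b and Rnf2 had values of 0.79, 0.75, 0.61, 0.56 and 0.53 that were below the fold threshold, and the median over the 10 genes was 0.54, beside 0.06 over all tested genes. Kdm6a and Ring1 were at 0.023 and 0.071 (limma adjusted p = 0.709 and 0.449). With a pseudocount of 0.1 Cbx2 was also called, at 1.29. Here too its higher level in ND1 day 7 libraries was fixed by the filter. Neurons against control day 7 showed lower Ezh1 (-2.02) and Eed (-1.29) and higher Kdm6b (1.55), with 28.1% of tested genes called higher and 25.2% lower, while Ezh2 was at 0.50 (SE 0.065, limma adjusted p = 4.47e-06). The day 7 control libraries serve in both this comparison and that of ND1 cells at day 7, so the likeness of the values for Ezh1 (-2.25 and -2.02) and Eed (-1.06 and -1.29) is not independent. Proliferation markers, at a summed 68.7 to 76.8 FPKM, were lower in neurons than in ND1 day 7 cells, with 6 of 14 called higher in ND1 cells; the part of dividing cells in the Ezh2 difference from neurons was not tested.

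Enzymes that oppose or accompany Polycomb were read in the same way. In PR-DUB, the complex that removes ubiquitin from H2A, 2 of 8 genes were called higher and 2 lower at day 7, close to the 25.7% and 24.5% of all tested genes. Asxl3, the Asxl paralog expressed mainly in brain, was 0.0415 ± 0.0133 FPKM in control and 7.66 ± 0.277 in ND1 day 7 libraries (log2 change 3.06, SE 0.066, limma adjusted p = 7.61e-15), and Foxk2 was 14.2 ± 0.653 and 35.5 ± 0.137 (1.27). Asxl3 was under 1 FPKM in every control library and passed the filter only through ND1 and neuron libraries. Its higher level there was thus fixed in advance. Mbd6 and Asxl2 were lower at -1.56 and -1.45. At day 2 Auts2 and Asxl3 were the only genes of the PRC2, PRC1 and PR-DUB lists that were called, at 1.45 and 1.08. Neither was called once the ND1 day 7 share was subtracted, a loss that followed from their position near that share. Of 14 genes of the H3K4 methyltransferase complexes, Ash2l, a core subunit, was called higher at day 7 (1.08), and 13 were not called. The H3K27 acetyltransferase Ep300, whose mark is exclusive with methylation on the same lysine, was 20.6 ± 2.68 FPKM in control and 8.58 ± 0.216 in ND1 day 7 libraries (log2 change -1.16, SE 0.078, limma adjusted p = 2.94e-09), while its paralog Crebbp was at 0.044 (limma adjusted p = 0.575).

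Classical Polycomb target loci were also read. Cdkn2a, of the Ink4-Arf locus that Bmi1 and Ezh2 repress in dividing cells, was 12.6 ± 1.12 FPKM in control day 7, 13.1 ± 0.145 in ND1 day 2, 0.732 ± 0.147 in ND1 day 7 and 0.207 ± 0.0646 in neuron libraries (SD, n = 3). It was lower in ND1 cells at day 7 at -2.98 (SE 0.079, limma adjusted p = 6.44e-14), and Cdkn2b at -1.22 (SE 0.067, limma adjusted p = 2.67e-10). The 39 Hox genes listed stayed under 1 FPKM in every library, so 0 were tested, and 20 of them were listed at 0 in all 15 libraries. Their summed FPKM was 0.184 to 0.325 in ND1 day 7 libraries, 0.306 to 0.654 in control day 7 and 1.09 to 1.26 in neurons.

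DNA methylation at the starts of these genes was low in both bisulfite libraries, 1 of control and 1 of ND1-transduced microglia, for which the labels give no day and the files no read depth. Within 1 kb either side of the start, the mean over CpGs in control and ND1 cells was 0.919% and 0.679% for Ezh2, 1.66% and 1.48% for Eed, 1.15% and 0.900% for Kdm6a (around the start described below), 3.34% and 3.59% for Suz12, and 3.98% and 2.71% for Bmi1. It was 3.41% and 2.33% for Rnf2 and 7.70% and 7.56% for Ring1. Ezh1 was at 5.35% and 8.17%, but over the 81 CpGs listed in both libraries it was at 5.41% and 5.50%. Over the CpGs listed in both, Rnf2 was likewise at 2.367% and 2.375%, and Bmi1 at 3.98% and 3.28%. For Bmi1, 102 CpGs were listed in control and 197 in ND1 cells. Over 20964 genes the median was 36.9% in control and 37.0% in ND1 cells, 20.7% of genes were under 5% in control, and 1.503% differed by 10 points or more between the libraries. None of the 8 genes did. For Kdm6a the start used is that of the RefSeq promoter set, at X:18162575, which lies 1713 bases inside the gene as annotated from 18160862; within 1 kb of that annotated start the mean was 37.1% over 10 CpGs in control and 28.0% over 12 in ND1 cells. In the 300-base windows printed above, 30 of 31 Ezh2 CpGs, 19 of 23 Ezh1 CpGs and 13 of 17 Eed CpGs were at 0 in control cells, and 29, 17 and 14 in ND1 cells. Outside the start, gene bodies were at 78.8% to 94.3% in both libraries for Ezh1, Ezh2, Eed, Suz12, Ring1, Rnf2 and Kdm6a. Bmi1, a gene of 9612 bases, was at 47.1% and 47.2%. For Cbx2 (57.3% and 56.9%) and Kdm6b (46.3% and 45.6%) the body value includes the start. With 1 library per condition no test was possible.

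**Figure D5:**
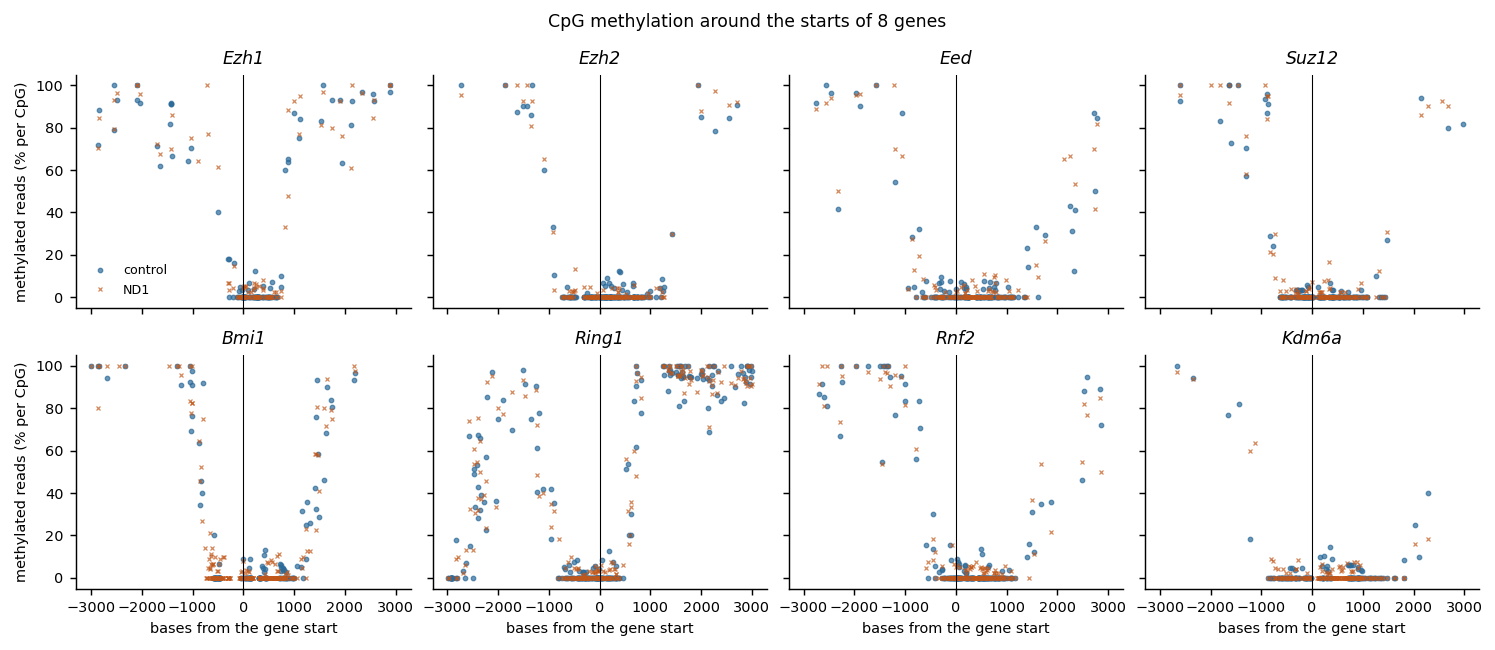
Methylated percentage of each CpG against its distance in bases from the gene start for 8 of the 10 genes, in 1 control and 1 ND1 library. Values near 0 lie around each start in both libraries, and high values lie farther out, except downstream of the Kdm6a start used, where no CpG shown exceeds 40%; the means within 1 kb run from 0.679% (Ezh2, ND1) to 8.17% (Ezh1, ND1).

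The genes whose profile over the 15 libraries lay nearest to each member were found by the root mean square difference of centred log2(FPKM + 1) values among 10939 genes. For Ezh2 they were Mllt3, Odc1, Ccbe1, Nrip1 and Nasp, at 0.186 to 0.325. Mllt3 had group means of 5.28 FPKM in control day 2, 2.58 in control day 7, 7.26 in ND1 day 2, 20.9 in ND1 day 7 and 5.52 in neurons. For Ezh1 they were Pdlim5, Anxa7, Clcc1, Snx1 and Hadha, at 0.0857 to 0.106, and for Kdm6b Prrc2b, Ptpn4, Myc, Clasp1 and Kdm1a, at 0.0911 to 0.162. Ezh2 thus had its nearest gene at a greater distance than Ezh1 or Kdm6b did, with SDs of the member profiles of 0.823, 0.942 and 0.753. The nearest genes were Gga2 for Eed, Cnot1 for Suz12, Zcchc11 for Bmi1, Aspscr1 for Ring1, Ptpn9 for Rnf2, Tardbp for Cbx2 and Cdc73 for Kdm6a. Ezh2, Cbx2 and Kdm6b overlap annotated long noncoding RNA genes (F830010H11Rik, Gm35829 and Gm51903), and as the strand used in counting is not stated, reads of the overlapping genes cannot be told apart.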

How the data were processed

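RNA was measured in 15 libraries and CpG methylation in 2; 10 immunoprecipitation libraries were not analysed here. The RNA tables hold FPKM per gene as deposited by the authors, made with TopHat, Bowtie2, Cuffdiff and Cufflinks on mm10, per the submitters' processing notes. They hold no read counts; relative depth was read from the spacing of low values, and 1 read was worth 0.727 to 1.13 times its worth in control day 2 replicate 1. For each CpG the deposited bisulfite tables give the methylated fraction, printed here as percent, with no depth and so no interval; the tools behind them are not given in the sources used.

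Values were tested as log2(FPKM + 1), for genes that reached 1 FPKM in 3 or more libraries, in limma 3.58.1 (R 4.3.3), with 5 group means, an intensity trend and no replicate block. Adjustment was over all 13599 genes in each of 7 comparisons. The fit was tested on simulated data. The share removal takes the median share over neuron-high genes. That part of the ND1 day 7 mean of each gene is subtracted from each ND1 day 2 value. Values are kept from going negative and are then divided by the share left. Named genes of the related lists are the up to 4 called with the largest change per list and comparison, and every gene of the 3 smallest topics (sex-linked, Ink4-Arf, acetyltransferases); others were chosen after their values were seen. The members and lists were chosen with earlier results of these data known. Alternatives were another pseudocount, filters, scalings, a replicate block, shares removed and each library left out. Promoter sequences are from RefSeq, with 8 of 10 matched.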

Additional observations from a re-analysis of the deposited data

Results flagged for a closer look

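For 3 of the 10 genes the change in ND1-transduced against control cells differed between the days. This is the test of the difference itself (limma, adjusted over all tested genes). Ezh2 had a difference of 2.29 on the log2 scale, from 0.17 at day 2 to 2.45 at day 7. Kdm6b had 1.49, from 0.61 to 2.10, and Ezh1 had -1.92, from -0.33 to -2.25. In control cells the same genes were at -0.89, -0.48 and 0.22 between the days, and these control values enter the difference. In the ND1 cells alone they were at 1.40, 1.010 and -1.70.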

How the results depend on the processing

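Ezh2 and Ezh1 at day 7 kept their direction and call under every alternative run, at 2.38 to 2.71 and -2.56 to -2.18, as did Kdm6b at 1.90 to 2.56. Without a fold threshold, 9 of the 10 had a limma adjusted p under 0.05 at day 2 (67.9% of all tested genes) and 9 at day 7 (90.8%). There were 8 for the difference between days (85.4%), 7 in control cells over time (65.8%) and 9 in ND1 cells over time (89.6%). Neurons against control had 10 (91%) and ND1 day 7 cells against neurons 8 (75.1%). Beside these shares the counts say nothing about the genes as a group. Quantile normalization left 3 called at day 7, in place of 5, and turned Cbx2 at day 2 to -0.19. A pseudocount of 0.1 called 1 in control cells over time (Ezh2) and 2 in ND1 day 7 cells against neurons (Ezh2 and Cbx2). With the share of ND1 day 7 subtracted, Ezh2 at day 2 turned to -0.43, and the genes called over the whole table fell to 134 from 1321. The share was fitted to the day 2 rise of neuron-high genes, so a gene near that share loses its change by construction. This loss of calls is no separate result. Why the day 2 libraries carry such a share was not tested. Without any 1 of the ND1 day 7 libraries Cbx2 was not tested, since it then reached 1 FPKM in fewer than 3, and 4 genes were called at day 7. In an alternative chosen after the data were seen, subtracting the same share turned the log2 ratio of Ezh2 to Ezh1 at day 2 to -0.348 from 0.536. The log2 ratio of Kdm6b to Kdm6a in control cells between the days was -0.061, and 0.106 with a pseudocount of 1. Leaving out 1 library it ran from -0.229 to 0.135, so it has no stable sign. The median promoter methylation of the 8 genes in control cells was 0.832% in the 300-base window. With 1 library left out, 464 of the single values stayed as they were by call and 4 lost the call. An uncalled value near 0 that changed sign by little beside its SE was counted as unchanged. Ring1 in the difference between days, for example, ran from -0.154 to 0.006. Under the other settings 609 were unchanged by the same rule, 5 gained the call, 4 lost it and 2 turned by more than that.

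Library numbers shared between groups did not pair the libraries: of 30 same-numbered pairs, 2 had deviations correlated above 0.1, with a range of -0.226 to 0.161. A fit with the replicate block again called 5 of the 10 genes at day 7, 0 at day 2 and 3 for the difference between days. Relative scaling moved the median of all genes by at most 0.095 on the log2 scale. Depth is unknown for methylation, and low FPKM values such as those of Cbx2 rest on few reads.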
